A study of Mus musculus with 6 samples.

Results

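The longest stretches of trimethylated lysine 36 of histone H3 (H3K36me3) in C3H10T1/2 cells are described here. They are the 512 peaks of 50 kb and longer among the 7773 peaks of the deposited H3K36me3 list, chosen by their length alone. These 512 peaks were 6.59% of the list and held 34.8 of its 156 Mb, or 22.2% of the bases it covered. Length chose them, so their lengths are given as a description. Their placement and their distances to other peaks were not used in the choice, but gaps, shared bases and the room around a peak are bound up with its length, which is said where it matters.

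C3H10T1/2 cells are a multipotent mesenchymal line from mouse embryos, here used at passages 10 to 15. A stable transgene gave them histone H3.3 with a FLAG-HA tag, in its wild-type form or with methionine in place of lysine 36 (K36M), and a control without any transgene is not among the groups. Each genotype gave an input library, an H3K36me3 library and an H3K27me3 library after micrococcal nuclease digestion and chromatin immunoprecipitation, which makes 6 libraries with 1 per group. The transgene's promoter and the number of clones are not stated in the labels. The cells keep their own histone genes beside the transgene. The peaks come as 1 list per mark on the mouse build mm9, with positions only, and neither list names a genotype. The values below therefore compare peaks within these lists, and wild-type and K36M cells are not compared. There is no replicate of a list, peak height and depth are unknown, and peaks are not replicates of a condition. No test was run between classes of peaks. Exact 95% intervals of shares (Clopper-Pearson) and of medians (from order statistics) cover counting error only and treat peaks as independent, which neighbours on a chromosome are not.

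H3K36me3 is laid down by the methyltransferase SETD2, which travels with elongating RNA polymerase II, so the mark is known to lie over the bodies of transcribed genes and to thicken towards their ends. H3K27me3 is laid down by Polycomb repressive complex 2 over silent genes, and this complex is known to work poorly on histones that carry H3K36 methylation. The K36M mutant is known to inhibit H3K36 methyltransferases and to lower H3K36 methylation across the genome. A long H3K36me3 peak can come from 1 long gene or from several neighbouring genes, and these lists do not tell them apart, because no gene model of the same build was used here.

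The long peaks thinned out steadily with length. Of the 512, 300 reached 60 kb, 163 reached 70 kb, 94 reached 80 kb, 53 reached 90 kb and 27 reached 100 kb. Each further 10 kb from 50 to 100 kb kept between 50.9 and 58.6% of the peaks, much as it did from 10 to 50 kb, where 55.0 to 57.0% were kept. From 50 to 100 kb the long peaks thus continued an even decline that ran from 10 kb, with no break at 50 kb. The first 10 kb kept 67.5% of the list. Above 100 kb the steps were uneven, on 27 peaks or fewer. H3K27me3 peaks declined more slowly, and each step from 50 to 100 kb kept 87.7 to 90.9% of them. However, the smallest gap between listed peaks was 10.2 kb for H3K27me3 and 1.2 kb for H3K36me3. How each list was cut may therefore differ, and it bears on peak length, so the tails do not compare the marks themselves. In the H3K27me3 list 1447 peaks, or 36.2%, were 50 kb or longer.

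**Figure D1:**
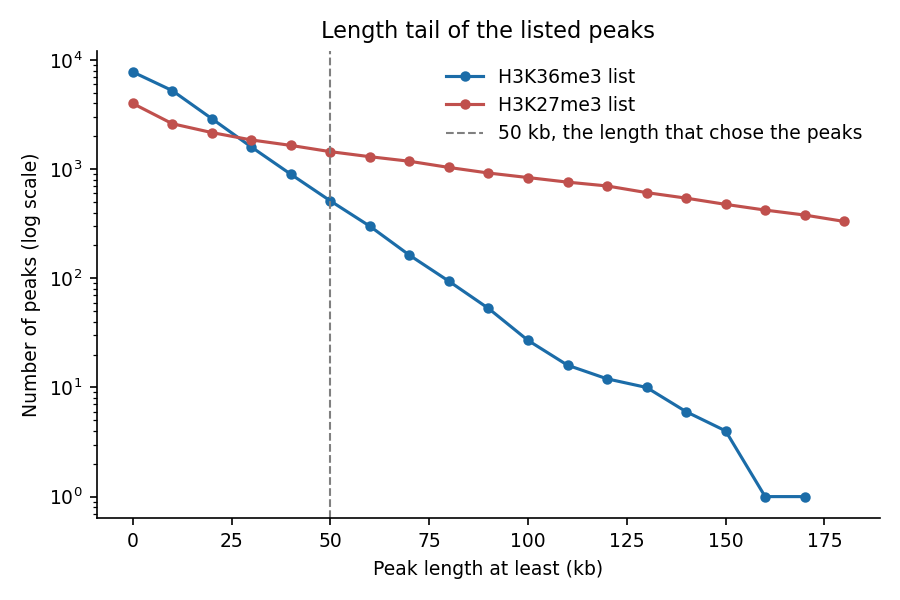
Number of peaks (log axis) at or above each length in kb, for the H3K36me3 and the H3K27me3 list, with the 50 kb threshold dashed. The H3K36me3 points fall from 512 at 50 kb to 27 at 100 kb along a nearly straight line.

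The median long peak was 62.3 kb (interquartile range 55.6 to 73.7 kb), and the mean was 67.9 kb ± 18.2 (SD over 512 peaks). Peaks of 50 to 60 kb made up 41.4% of them (212 peaks). The 27 peaks of 100 kb and longer were 5.27% of the long peaks and held 3.32 Mb, or 9.55% of their bases. Lengths did not pile up at the threshold. There were 27 peaks from 50 kb to under 51 kb and 33 from 49 kb to under 50 kb. The 5 peaks just inside it were 50 or 50.2 kb long. They lay on chromosome 10 (14120601 to 14170600), chromosome 3 (159549601 to 159599600), chromosome 5 (125957001 to 126007000), chromosome 8 (63370201 to 63420200) and chromosome 14 (17214801 to 17265000). The 5 just outside were each 49.8 kb long. These lay on chromosome 12 (99986601 to 100036400), chromosome 15 (31155201 to 31205000 and 91534401 to 91584200) and chromosome 2 (22780801 to 22830600 and 31328001 to 31377800). The gap to the nearest other H3K36me3 peak ran from 2 to 1581 kb for the 5 inside and from 1.2 to 180 kb for the 5 outside, so either side of the threshold held both crowded and solitary peaks.

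How the list was cut bears on the number of long peaks. Neighbouring H3K36me3 peaks can be as little as 1.2 kb apart, and joining those closer than 5 kb gave 756 peaks of 50 kb and longer among 6482, or 11.7%. Of the 756, 501 contained a peak that was already 50 kb long, 135 of these together with further pieces, and 255 were built only from shorter pieces. The joined list held 82 peaks of 100 kb and longer, against 27 as listed. A long H3K36me3 region that was listed only in pieces under 50 kb is therefore not among the 512.

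The 10 longest peaks came from 9 chromosomes. The longest, 177 kb on chromosome 11 (23219601 to 23396200), had other H3K36me3 peaks 19.4 kb before and 74.2 kb after it. The second, 158 kb on chromosome 15 (63896401 to 64054400), was followed after 4.8 kb by a peak of 84.6 kb. The third, 157 kb on chromosome 2 (17987401 to 18144800), was the most solitary of the 10, with 451 kb to its nearest neighbour. On chromosome 1 a peak of 157 kb (196487401 to 196644000) lay 2 kb from a peak of only 3 kb. On chromosome 14 a peak of 146 kb (68335801 to 68482000) lay 3 kb from one of 40.6 kb.

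The next 5 showed the same mixture. A peak of 144 kb on chromosome 11 (62095801 to 62239400) had a neighbour of 12.2 kb at 2 kb and the nearest H3K27me3 at 277 kb. The peak of 137 kb on chromosome 5 (102262001 to 102398800) had H3K27me3 at 11.4 kb on 1 side and 107 kb on the other, and its nearest H3K36me3 peak at 44 kb. A peak of 133 kb on chromosome 17 (74971201 to 75104200) was the only 1 of the 10 with H3K27me3 less than 10 kb away, a peak of 1.2 kb at 8.4 kb. The last were a peak of 133 kb on chromosome 19 (37970801 to 38103400), with H3K27me3 at 51.6 kb, and a peak of 132 kb on chromosome 7 (80570401 to 80702600), with H3K27me3 at 93.2 kb. In all, 7 of the 10 had another H3K36me3 peak less than 10 kb away, always on 1 side only.

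Long peaks were found on all 20 chromosomes of the list, in unequal shares. Across the list 6.59% of the peaks were long, which is the share that the rule itself sets. Chromosome 12 had the highest share, 31 of 267 peaks or 11.6% (95% interval 8.03 to 16.1). Chromosome 18 followed with 21 of 236 (8.90%, 5.59 to 13.3) and chromosome 15 with 28 of 316 (8.86%, 5.97 to 12.6). The lowest shares were on chromosome 8, with 16 of 462 (3.46%, 1.99 to 5.56), on chromosome X, with 10 of 241 (4.15%, 2.01 to 7.50), and on chromosome 19, with 11 of 265 (4.15%, 2.09 to 7.31). Of 20 intervals, that of chromosome 12 lay wholly above 6.59% and that of chromosome 8 wholly below it, and the other 18 included it. The extremes were picked out of 20 chromosomes, so these intervals are no test.

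**Figure D2:**
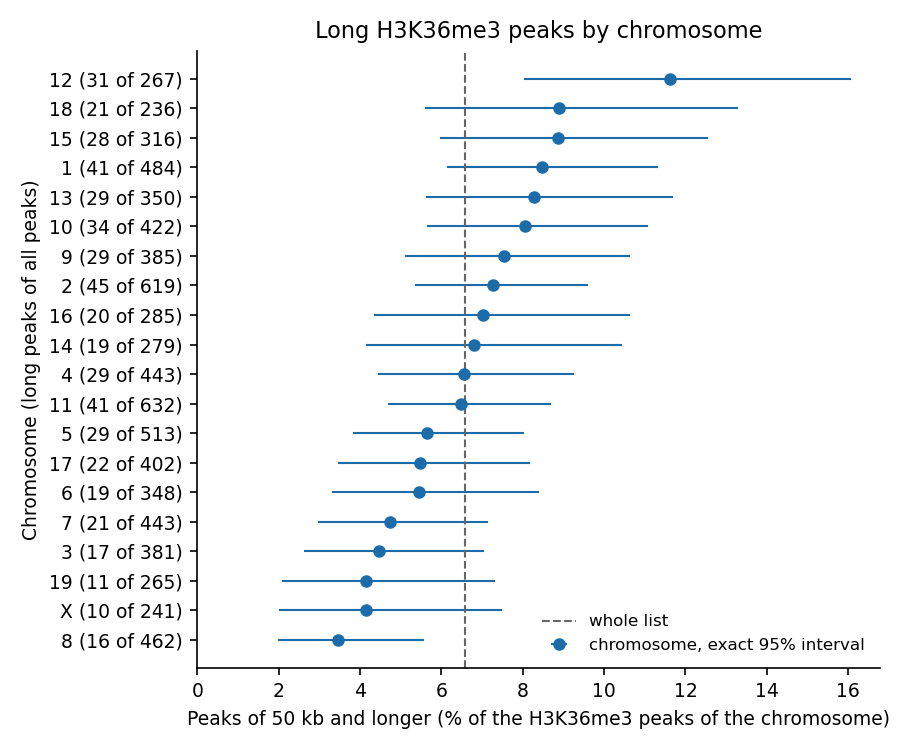
Share of the H3K36me3 peaks of each chromosome that were 50 kb or longer (points, %) with exact 95% intervals (bars), and the 6.59% of the whole list (dashed). Chromosome 12 stands at 11.6% and chromosome 8 at 3.46%, and the other intervals include the dashed line.

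On chromosome 12 the high share held for moderate lengths. Its longest peak was 79.6 kb, 3 of its 31 long peaks reached 75 kb (122 of 512 over the list), and its share of peaks of 75 kb and longer was 0.716 times that of the list. On chromosome 8 the share stayed low at 75 kb (5 of 462 peaks, 0.690 times that of the list), and at 100 kb only 2 peaks remained there. The 27 peaks of 100 kb and longer were spread over 16 chromosomes, with at most 4 on any of them (chromosome 2), and chromosomes 3, 6, 10 and 12 had none. Densities were taken over the span from the first to the last listed peak of either mark on a chromosome. Long peaks were densest on chromosome 11 (34.6 per 100 Mb) and sparsest on chromosome X (6.25 per 100 Mb). These chromosomes also had the most and the fewest H3K36me3 peaks of any length per Mb (5.33 and 1.51).

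Long peaks were met along the chromosomes every few Mb. The median gap from 1 long peak to the next on the same chromosome was 2.48 Mb (492 gaps, up to 50.8 Mb), and 245 of the 512 (47.9%) had another long peak less than 1 Mb away, where 44.3% of all peaks had a long peak that near. The difference from shorter peaks was 3.81 points (-0.64 to 8.28). Of 510 windows of 5 Mb that held any H3K36me3 peak, 222 held no long peak, 141 held 1 and 94 held 2. The fullest window was the stretch from 5 to 10 Mb of chromosome 15, where 6 of 17 H3K36me3 peaks were long. A window on chromosome 1 from 60 to 65 Mb held 5 long peaks among 22.

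As a class, the 512 long H3K36me3 peaks had neighbours of the same mark about as often as shorter ones. A near neighbour, another H3K36me3 peak at under 10 kb, was listed beside 217 of them, or 42.4% (38.1 to 46.8), where 42.7% of all peaks had such a neighbour. Against the 7261 shorter peaks the difference was -0.32 percentage points (95% interval -4.68 to 4.14 by Newcombe's method). The median gap to the nearest H3K36me3 peak was 18.4 kb (13.6 to 24.0) for long peaks and 15.4 kb (14.6 to 16.4) for shorter ones. The median was larger for long peaks on 11 chromosomes and smaller on 9. At under 2 kb a neighbour was listed for 60 long peaks (11.7%, where 13.0% of all peaks had it) and at under 50 kb for 353 (68.9%, where 71.6% of all peaks had it). On the farther side the median gap was 212 kb (171 to 256) against 165 kb (155 to 174).

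Of the 217 long peaks with a near neighbour, 184 had it on 1 side and 33 on both. Both sides were occupied for 6.45% of long peaks, where 6.02% of all peaks had neighbours on both sides. The nearest of these neighbours were mostly of ordinary length, with a median of 15.8 kb, and 15.0 kb beside shorter peaks. The nearest peak, at any distance, was itself long for 36 long peaks (7.03%), where 6.79% of all peaks had a long one as the nearest. Among the 217 with a near neighbour, the nearest peak was itself long for 21 (9.68%), and for shorter peaks with a near neighbour the share was 6.09%. These shares leave out a long peak under 10 kb away that was not the nearest. By chromosome the share of long peaks with a near neighbour ran from 15% (3 of 20, chromosome 16) to 63.6% (14 of 22, chromosome 17), on 10 to 45 long peaks each. At the other end, 50 long peaks (9.77%) had no other H3K36me3 peak within 200 kb, where 8.61% of all peaks had none.

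The 5 most solitary long peaks stood more than 1 Mb from any other H3K36me3 peak. The largest gap was 1906 kb, around a peak of 65.2 kb on chromosome 18 (16745401 to 16810600). It was followed by 1752 kb around a peak of 58.6 kb on chromosome 17 (42929201 to 42987800). The third was a gap of 1581 kb around the peak of 50.2 kb on chromosome 14 named at the threshold. A peak of 55.6 kb on chromosome 5 (42175601 to 42231200) had 1397 kb, and a peak of 56.8 kb on chromosome 2 (146848001 to 146904800) had 1089 kb. Being far from H3K36me3 did not go with 1 distance to H3K27me3, which lay 6.4 kb from the peak on chromosome 2 and 1419 kb from the peak on chromosome 18.

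The 27 peaks of 100 kb and longer more often had a near neighbour, a difference that was not tested. A neighbour lay less than 10 kb away for 18 of them, or 66.7% (46.0 to 83.5), against 41.0% (36.6 to 45.6) of the 485 peaks of 50 to 100 kb. Their median gap was 4.8 kb (2.0 to 19.4). All 18 had the neighbour on 1 side only, and they lay on 13 chromosomes. The neighbours had a median length of 17.6 kb. At a threshold of 75 kb the share was 44.3%, so the rise was seen in the last few peaks of the tail. Among all 512, length and gap had a Spearman correlation of 0.019 (across peaks of 1 list, which share chromosomes and the calling of the list).

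**Figure D3:**
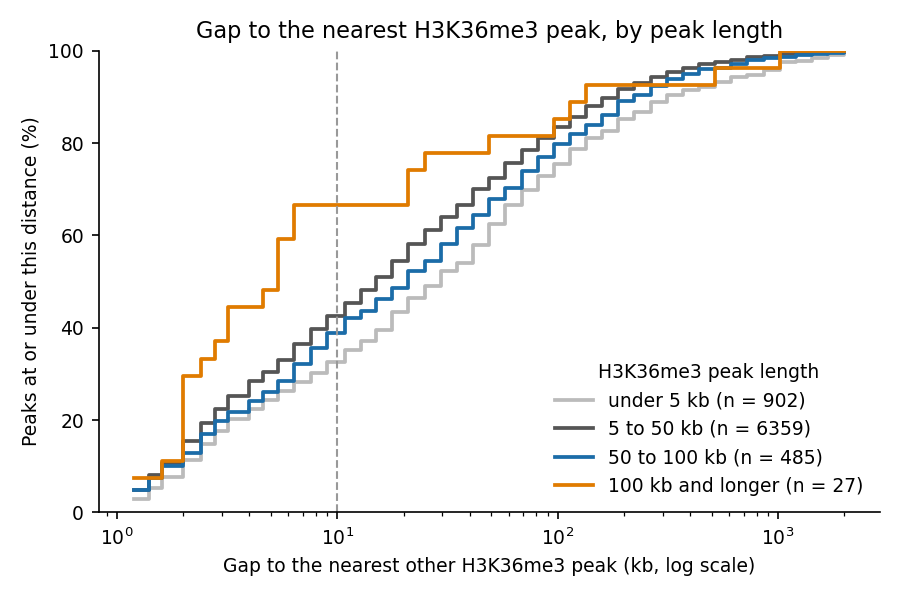
Cumulative share of H3K36me3 peaks (%) by the gap to their nearest neighbour in the list (kb, log axis), for 4 classes of peak length, with 10 kb dashed. The 485 peaks of 50 to 100 kb run between the classes of shorter peaks, while the 27 peaks of 100 kb and longer reach 66.7% at 10 kb.

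Long peaks linked by gaps under 10 kb, directly or through shorter peaks between them, formed 16 runs, 15 with 2 long peaks and 1 with 3. These runs held 33 of the 512. The longest, 320 kb on chromosome 15 (63896401 to 64216800), was the run with 3, and peaks covered 97.0% of it. Chromosome 2 held the next, of 218 kb (115683801 to 115901400), and chromosome 13 another of 210 kb (105079801 to 105289400). The remaining runs among the 5 longest lay on chromosome 10 (179 kb, 5071001 to 5250000) and chromosome 17 (170 kb, 75622601 to 75792800). In the run on chromosome 13, 4 shorter peaks joined the 2 long ones. Across the 16 runs, peaks covered 91.2 to 99.0% of the bases, a high cover that the joining of gaps under 10 kb largely sets. The nearest H3K27me3 peak was 6 to 1605 kb away from these runs, and none of them shared a base with it.

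Long peaks, like the H3K36me3 list as a whole, seldom shared bases with H3K27me3. Bases were shared by 3 of 512 (0.586%, 0.121 to 1.70), where 0.939% of all H3K36me3 peaks did so. The difference from shorter peaks was -0.38 points (-0.84 to 0.76). The shared bases added up to 30.6 kb, or 0.088% of the bases of the long peaks, against 0.288% of those of shorter peaks. By length class, the share of peaks with a shared base was 2.99% (1.98 to 4.33) under 5 kb, 0.983% (0.700 to 1.34) from 5 to 20 kb and 0.167% (0.046 to 0.428) from 20 to 50 kb, which was lower than that of the long peaks.

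None of the 3 long peaks lay wholly inside an H3K27me3 peak, which was the case for 45 of the 70 shorter sharing peaks, and peak length limits how often this can happen. The most was shared by a peak of 72.2 kb on chromosome 17 (6174401 to 6246600), whose last 27 kb lay under an H3K27me3 peak of 53.6 kb (6219601 to 6273200) that ran on for 26.6 kb beyond its end. The other 2 each enclosed a short H3K27me3 peak near their first base. A peak of 61.6 kb on chromosome 5 (65996001 to 66057600) enclosed a peak of 2 kb that began 3 kb inside it (65999001 to 66001000). A peak of 83.2 kb on chromosome 7 (125275001 to 125358200) enclosed a peak of 1.6 kb that began 0.4 kb inside it (125275401 to 125277000). A longer peak has more bases at which to meet the other mark and is less easily contained by it, so these counts are not corrected for length.

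The distance from long peaks to H3K27me3 was much like that from shorter peaks. The median was 100 kb (85.0 to 113) against 87.8 kb (84.0 to 92.0), and the median was the larger for long peaks on 14 of 20 chromosomes. H3K27me3 lay less than 10 kb away, sharing included, for 69 long peaks or 13.5%, where 14.2% of all peaks had it that near. The difference from shorter peaks was -0.74 points (-3.55 to 2.59). Within 50 kb the share was 34.0% for long peaks, where 37.6% of all peaks had H3K27me3 within 50 kb, and the difference from shorter peaks was -3.92 points (-8.04 to 0.44). At 500 kb and farther were 55 long peaks (10.7%), where 9.98% of all peaks were that far. Every one of these intervals of differences included 0. By chromosome the share within 10 kb ran from 0% on chromosomes 3 (17 long peaks) and 9 (29), where shorter peaks had 8.24 and 8.71%, to 25% on chromosome 8 (16 long peaks), where shorter peaks had 17.3%. On chromosome 18 it was 23.8% of 21 long peaks, against 5.58% of shorter ones. Long peaks had the higher share on 10 chromosomes and the lower on 10.

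**Figure D4:**
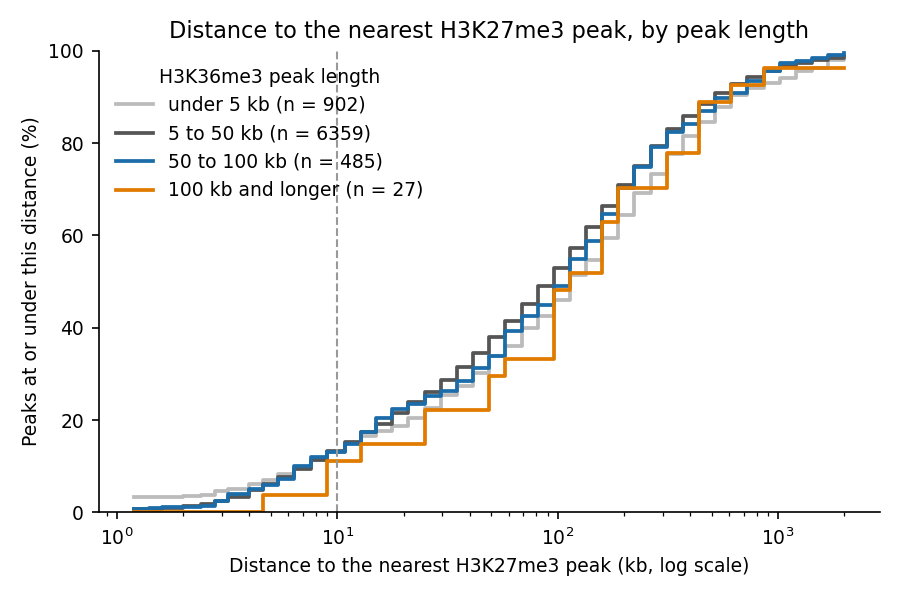
Cumulative share of H3K36me3 peaks (%) by the distance to the nearest H3K27me3 peak (kb, log axis), for 4 classes of peak length, with 10 kb dashed. The curves of the classes under 100 kb run close together. That of the 27 peaks of 100 kb and longer lies lower in parts, at 33.3% by 81.2 kb against 44.9% for 50 to 100 kb. By 96 kb it is at 48.1% against 49.1%. The medians of the classes of 50 to 100 kb and of 100 kb and longer are 99.8 and 104 kb.

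Some long peaks ran right up to H3K27me3. The nearest without a shared base was the peak of 50 kb on chromosome 10 (14120601 to 14170600), 0.6 kb from an H3K27me3 peak of 243 kb. It was followed by a peak of 64.2 kb on chromosome 13 (12488401 to 12552600), 1.4 kb from one of 107 kb, and a peak of 91 kb on chromosome 11 (84235401 to 84326400), 1.6 kb from one of 295 kb. A peak of 52.2 kb on chromosome 19 (45006201 to 45058400) lay 2.4 kb from an H3K27me3 peak of 346 kb. The fifth, of 68.6 kb on chromosome 13 (112210001 to 112278600), lay 2.6 kb from a peak of only 6.4 kb. At 4 of these 5 borders, which were picked as the nearest, the H3K27me3 peak was over 100 kb long. The shares over all long and all shorter peaks with H3K27me3 less than 10 kb away and no shared base are given below.

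The H3K27me3 peaks nearest to long H3K36me3 peaks had the higher median length, a difference that was not tested. It was 35.2 kb (26.8 to 43.2), against 24.8 kb (23.2 to 26.2) beside shorter H3K36me3 peaks. Of the 66 long peaks with H3K27me3 less than 10 kb away and no shared base, 20 (30.3%) faced an H3K27me3 peak of 100 kb or longer, and 228 of 960 shorter peaks (23.8%) did.

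At the other extreme, some long peaks were several Mb from H3K27me3. The farthest, 85.4 kb on chromosome X (39553401 to 39638800), was 4219 kb from the nearest H3K27me3 peak, in a stretch of 10617 kb between H3K27me3 peaks. On chromosome 18 a peak of 108 kb (50016401 to 50124800) came next, at 2297 kb. It was followed by peaks on chromosome 13 (6548601 to 6605800) at 2066 kb, on chromosome 10 (107659201 to 107719800) at 1719 kb and on chromosome 4 (144720601 to 144773600) at 1697 kb. The peak on chromosome 4 had another long peak, of 90.4 kb, 1.4 kb away, so it was far from H3K27me3 but not from H3K36me3. Among these 5 the gap to the nearest H3K36me3 peak ran from 1.4 to 125 kb. The most solitary long peak, on chromosome 18 (16745401 to 16810600), was far from both marks.

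Measured by the room between flanking H3K27me3 peaks, the long peaks had the higher median, which was not tested either. For the 505 long peaks with H3K27me3 on both sides of them on the chromosome and no shared base, this stretch had a median of 699 kb (656 to 763), against 547 kb (533 to 565) for shorter peaks. A stretch is counted once for each peak in it, and the 7098 shorter peaks counted here share their stretches. Stretches with many peaks thus weigh more, and the intervals are too narrow, above all for shorter peaks. A stretch must at least hold its peak, and with the peak's own length taken off the medians were 638 kb (589 to 701) and 531 kb (515 to 547). The median stretch was the larger for long peaks on 14 chromosomes and the smaller on 6. A long peak took a median of 9.65% of its stretch, and 17.6% of the remaining room was on its nearer side (20.3% for shorter peaks).

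A long peak filled at least 50% of its stretch in 21 cases (4.10%), where 1.40% of all peaks did, a share that peak length largely sets. The fullest was on chromosome 19, where a peak of 53.2 kb (41284201 to 41337400) took 88.7% of a stretch of 60 kb, with H3K27me3 2.8 kb before and 4 kb after it. On chromosome 11 a peak of 100 kb (83117601 to 83217800) took 83.4% of a stretch of 120 kb. H3K27me3 lay less than 10 kb away on both sides, with no shared base, for 3 of the 512 (0.586%), where 1.07% of all peaks had it so. Less than 50 kb away on both sides it lay for 21 long peaks (4.10%), where 6.11% of all peaks were so enclosed.

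The 509 long peaks without a shared base lay in 439 stretches, and 59 of these held more than 1 long peak. The most was 4, in a stretch of 1496 kb on chromosome 11 (85649201 to 87145200) with 18 H3K36me3 peaks in all. A long peak was the only H3K36me3 peak of its stretch in 55 cases (10.7%), where 10.4% of all peaks were alone in theirs.

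The share of long peaks close to H3K27me3 was higher in each class of larger gaps to H3K36me3. H3K27me3 lay less than 10 kb away for 8.76% (5.35 to 13.3) of the 217 long peaks with a near H3K36me3 neighbour, for 14.0% (8.63 to 21.0) of the 136 with the neighbour at 10 to 50 kb, for 18.3% (11.6 to 26.9) of the 109 at 50 to 200 kb and for 22.0% (11.5 to 35.96) of the 50 with none within 200 kb. The same series was 8.93, 16.5, 19.9 and 19.9% for shorter peaks, so shorter peaks ran from a low first share as well. Neighbouring intervals overlapped, and the difference between the first and the last share was not tested. The medians did not follow the same order, being 104, 80.4, 117 and 74.4 kb.

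The flanks of long peaks carried both marks much as those of shorter peaks did. H3K27me3 covered 0.215% of the bases within 2 kb outside the edges of long peaks, 4.94% from 5 to 10 kb and 14.9% from 100 to 200 kb, against 0.802, 5.60 and 15.8% beside shorter peaks. Within 2 kb the cover was lower beside long peaks on 18 of 20 chromosomes, and shorter peaks that lie inside H3K27me3 count towards the 0.802%. For peaks of 20 to 50 kb it was 0.138%. Other H3K36me3 peaks covered 1.86% within 2 kb, 21.5% from 10 to 20 kb and 9.74% from 200 to 500 kb of long peaks, and 1.85, 21.6 and 10.7% beside shorter peaks. Listed H3K36me3 peaks are at least 1.2 kb apart, which by itself keeps the cover within 2 kb low in both classes. A long peak had a median of 5 other H3K36me3 peaks within 500 kb (interquartile range 3 to 8), against 6 (3 to 9) for shorter peaks. The cover of long peaks from 200 to 500 kb was lower than that of shorter peaks on 15 chromosomes for H3K27me3 and on 13 for H3K36me3, and the ranges over chromosomes overlapped widely.

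**Figure D5:**
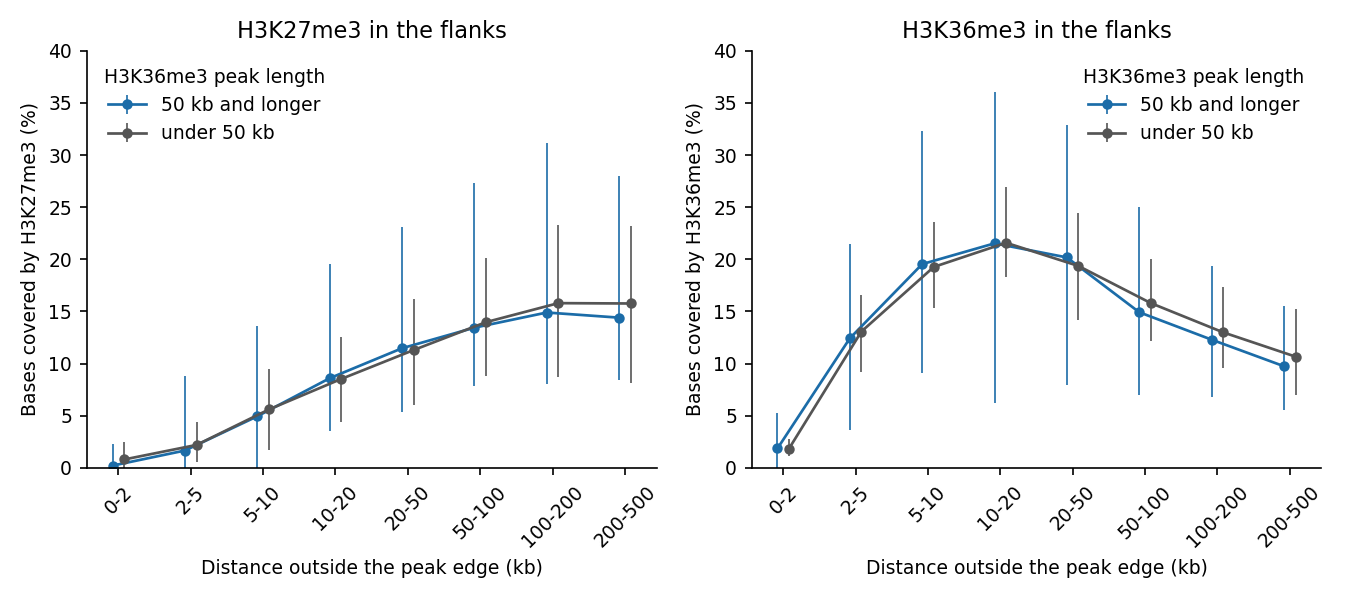
Share of bases (%) covered by H3K27me3 (left) and by other H3K36me3 peaks (right) at 8 ranges of distance outside the edges of H3K36me3 peaks of 50 kb and longer and of shorter ones. Points are pooled over chromosomes and bars run from the lowest to the highest of 20 chromosomes, which overlap between the classes at every distance.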

How the data were processed

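The authors deposited 2 peak lists, 1 per mark, each with 3 columns: the chromosome, start and end of a peak, without scores or read numbers. Reads were aligned with Bowtie 1.0.0 to mm9, per the submitters' processing notes, and the peak caller is not given in the sources used here, nor are its settings, any pooling or the use of inputs. Every deposited start is a multiple of 200 bp and every end lies 1 bp before such a multiple, so ends were read as included, and coordinates are printed counted from 1. Gaps and distances count the bases between edges. Gaps, distances to the other mark, shared bases, flank cover and the number of joined peaks were tested on simulated lists against base-by-base counting. Other measures, among them stretches, runs and windows, were not tested in this way. The work used Python 3.11.15, pandas 2.3.3 and scipy 1.17.1. Stretches reach from 1 H3K27me3 peak to the next. Runs join gaps under 10 kb. Regions are named by rules of extreme length, gap or distance. Peaks and rules were chosen with earlier results of these data known. Fullest stretches, windows, the split by gap and the class of 100 kb and longer were singled out after values were seen. Gene lists were not analysed, because the gene table is on another build.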

Additional observations from a re-analysis of the deposited data

How the results depend on the processing

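The number of long peaks was 502 on autosomes, 508 with ends excluded and 756 after joining, against 512. The share of chromosomes 12 and 8 relative to the list, the differences from shorter peaks in nearness within 10 kb to either mark, the share with a base in H3K27me3, and the median gap, H3K27me3 distance and stretch were recomputed at 40, 75 and 100 kb and after joining, and all but the chromosomes on autosomes. They stayed within the interval of the value reported, with the exceptions below. The other values were not recomputed. At 75 kb the share of long peaks on chromosome 12 fell to 0.716 times that of the list (1.76 at 50 kb). At 100 kb it was 0, that of chromosome 8 rose from 0.526 to 1.25 times, the excess of near H3K36me3 neighbours over other peaks was 24.1 points, the median gap 4.8 kb, the share with a base in H3K27me3 0 of 27 and the median stretch 1202 kb. Only 27 peaks enter these values, and the cause was not tested. Joining raised the median gap to 43.3 kb, since it removes gaps under 5 kb, and for the same reason lowered the share with a near H3K36me3 neighbour to 17.6% for long and 17.7% for shorter peaks. Leaving out H3K27me3 peaks under 5 kb raised the median distance to 131 kb and the stretch to 913 kb, as fewer peaks bound them. At 50 kb in place of 10 kb the difference in H3K27me3 nearness was -3.92 points. No paired analysis was possible because neither list is tied to a library, with 1 library per group. Depth is unknown, and wild type against K36M was not run.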
